A study of Homo sapiens with 9 samples.

Results

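The mucins are a family of large glycoproteins that cover epithelia of the bile ducts, gut and airways. The 10 mucin genes described here were taken by symbol from the deposited array values, as MUC1, MUC2, MUC4, MUC5AC, MUC5B, MUC6, MUC13, MUC15, MUC16 and MUC20, and each was found as 1 probe set. They are 10 of 37201 probe sets that carry a single gene symbol, out of 39334 probe sets in all. Their Entrez identifiers are 4582 for MUC1, 4583 for MUC2, 4585 for MUC4, 4586 for MUC5AC, 727897 for MUC5B, 4588 for MUC6, 56667 for MUC13, 143662 for MUC15, 94025 for MUC16 and 200958 for MUC20.

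The study silenced YAP and TAZ together in HUCCT-1 cells, an established line of human cholangiocarcinoma, and asked which genes depend on these co-activators of the Hippo pathway. RNA was measured on 9 arrays, 3 from cells given scrambled siRNA (NTC), 3 from cells given YAP siRNA 1 with TAZ siRNA 2 (combi-1) and 3 from cells given YAP siRNA 2 with TAZ siRNA 3 (combi-2). These siRNA numbers are those of the labels, and the methods name TAZ siRNAs 1 and 2 only, so which TAZ siRNA combi-2 holds is uncertain. The siRNAs were used at 40 nM with the lipid reagent RNAiMAX and RNA was taken 24 h after transfection, a time that the methods give with the siRNAs of combi-1 and not with those of combi-2. Both combinations are transient knockdowns in a single cell line, and both are compared with the same 3 NTC arrays. The study calls its arrays biological samples but does not say that they came from separate cultures, and each p-value rests on the array-to-array spread, part of which may be technical. In RNA from a whole culture, fewer cells that express a gene and less RNA per cell cannot be told apart.

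Mucins share a backbone rich in serine, threonine and proline, in which long tandem repeats carry dense O-linked sugar chains. MUC2, MUC5AC, MUC5B and MUC6 are secreted and polymerise into the gel of mucus, and MUC5AC and MUC6 are best known from the stomach and MUC2 from the intestine. MUC1, MUC4, MUC13, MUC15, MUC16 and MUC20 stay at the cell surface, where MUC1 and MUC4 take part in signaling by receptor tyrosine kinases and the shed part of MUC16 is the serum marker CA125. The secreted genes lie in a row on the RefSeq assembly, where 0 other protein-coding genes stand between MUC2 and MUC5AC or between MUC5AC and MUC5B and 1 stands between MUC6 and MUC2. MUC20 and MUC4 are also neighbours, with 0 protein-coding genes between them.

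A promoter window of 250 bases before the start of the gene was at hand for 5 of the 10 mucins (RefSeq, GRCh38.p14). The 4 windows below are printed because MUC16 was the member called in the fit, MUC4 had the next smallest p with combi-1, and MUC1, MUC13 and MUC4 hold the core letters of a TEAD site, the element through which YAP and TAZ reach DNA. Capitals mark a TEAD core (CATTCC or GGAATG), an AP-1 site (TGANTCA on both strands) or a TATA box (TATAAA or TTTATA). No marked motif overlaps another, and the core of the interferon-stimulated response element was searched as well and is in none of the 7 windows of these mucins. The windows are chr19:9065752-9066001 for MUC16, chr3:195811930-195812179 for MUC4, chr3:124934752-124935001 for MUC13 and chr1:155192916-155193165 for MUC1, all on the minus strand.
MUC16: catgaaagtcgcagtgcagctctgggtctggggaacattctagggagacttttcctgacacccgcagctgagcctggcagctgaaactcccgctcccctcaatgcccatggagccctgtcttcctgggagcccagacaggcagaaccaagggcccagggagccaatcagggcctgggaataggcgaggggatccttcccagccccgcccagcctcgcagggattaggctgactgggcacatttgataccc
MUC4: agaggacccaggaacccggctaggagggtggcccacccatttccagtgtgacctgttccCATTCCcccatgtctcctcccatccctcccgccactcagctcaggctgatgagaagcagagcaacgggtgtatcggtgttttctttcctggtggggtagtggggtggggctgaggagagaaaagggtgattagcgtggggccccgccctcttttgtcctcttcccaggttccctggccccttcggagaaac
MUC13: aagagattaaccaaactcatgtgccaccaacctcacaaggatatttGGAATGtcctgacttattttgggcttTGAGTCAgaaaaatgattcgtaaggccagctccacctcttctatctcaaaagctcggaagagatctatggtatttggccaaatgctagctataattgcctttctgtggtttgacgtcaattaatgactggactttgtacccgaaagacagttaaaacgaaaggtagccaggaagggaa
MUC1: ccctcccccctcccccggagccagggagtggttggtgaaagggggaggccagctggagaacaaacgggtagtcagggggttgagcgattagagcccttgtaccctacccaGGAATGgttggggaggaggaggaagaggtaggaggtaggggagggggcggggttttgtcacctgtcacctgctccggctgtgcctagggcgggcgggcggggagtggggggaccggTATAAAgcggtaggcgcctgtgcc
The MUC16 window held 0 matches of the 4 motifs, and a further MUC16 window, at an inner start, held 1 AP-1 match. The TEAD core began 191 bases before the start in MUC4, 204 bases before it in MUC13 and 140 bases before it in MUC1. MUC13 also held an AP-1 match and MUC1 a TATA box. The window of MUC2, the remaining mucin with a window and not printed, held 0 TEAD cores and 1 AP-1 match. Of all 35116 windows in the table, 11.9% held the TEAD core, 6.57% the AP-1 site, 3.02% the interferon core and 10.7% the TATA box. A match describes letters in this window and is not a site shown to be bound.

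The siRNA targets bore out the division into silenced and NTC arrays. YAP1 had a log2 signal of 9.10 with NTC, 6.88 with combi-1 and 6.85 with combi-2, and WWTR1, which encodes TAZ, had 8.36, 7.02 and 6.97. YAP1 and WWTR1 do not tell combi-1 from combi-2 (adjusted p = 0.939 and 0.845 from limma). The known targets ANKRD1, CCN1 and CCN2 also fell with both combinations. The medians of the named probe sets lay between 5.835 and 5.839 on all arrays. Of 8 markers of biliary epithelium, all had mean log2 signals between 8.24 and 11.65, while the lists of other cells were mixed. Mean log2 signals ran from 4.21 (CYP3A4) to 9.43 (SERPINA1) over 5 hepatocyte markers, from 4.10 (DCN) to 7.20 (COL1A1) over 5 fibroblast markers, from 4.33 (PTPRC) to 6.03 (CD14) over 4 leukocyte markers and from 4.81 (PECAM1) to 6.01 (CDH5) over 3 endothelial markers. Of these lists, 0 markers were called in any comparison (limma), and between 0 and 1 per list and comparison had an unadjusted p under 0.05. Over all genes, 1.51% were called with combi-1, 0.75% with combi-2 and 0.333% between them. The shares past an unadjusted p of 0.05 were 15.7%, 13.3% and 8.87% in the same order. Of the 8 epithelial markers, 2 were called higher with combi-1, 1 with combi-2 and 0 lower with either. Positive log2 fold changes were seen in 5 of 8 with combi-1 and 4 of 8 with combi-2, with medians of 0.089 and 0.045. SOX9 had −0.20 with combi-2 (adjusted p = 0.274 from limma). CLDN4, a tight junction claudin, rose by 0.73 with combi-1 and 0.67 with combi-2 on the log2 scale (adjusted p = 0.00309 and 0.00862 from limma). CDH1, which encodes E-cadherin, rose by 0.39 with combi-1 (adjusted p = 0.0357) and had 0.09 with combi-2 (adjusted p = 0.607). The part of these changes in the mucin values was not tested.

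MUC16 was the only mucin past the test, and its RNA was higher after silencing with combi-1. Its log2 signal was 7.86, 8.10 and 8.14 on the NTC arrays, 8.47, 8.54 and 8.70 on the combi-1 arrays and 8.48, 8.38 and 8.30 on the combi-2 arrays. All 6 silenced arrays lay above all 3 NTC arrays, and NTC replicate 1 was the lowest of the 9. The log2 fold change with combi-1 was 0.54 (standard error 0.0953, n = 3 arrays per group, adjusted p = 0.0332 from limma), a 1.45-fold increase with a 95% interval of 0.32 to 0.76 on the log2 scale. This increase ranks 129 by size among the 253 genes called higher with combi-1. The call was lost in an ordinary linear model (adjusted p = 0.0821). It was also lost with a replicate block (adjusted p = 0.1) and with only the 6 arrays compared (adjusted p = 0.0792). Leaving out any of NTC replicates 1 and 2, combi-1 replicates 1, 2 and 3 and combi-2 replicates 1 and 2 lost it too (adjusted p between 0.0531 and 0.125). The fold change stayed positive in every other fit, those that kept the call included, between 0.452 and 0.595 on the log2 scale.

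With combi-2 the MUC16 signal was 0.36 higher on the log2 scale, 1.28-fold, with a 95% interval of 0.14 to 0.57, and this did not pass the test (adjusted p = 0.172 from limma). The order of its group means was NTC at 8.03 ± 0.153, combi-2 at 8.39 ± 0.0909 and combi-1 at 8.57 ± 0.119 (SD, n = 3). Combi-2 minus combi-1 was −0.18 (95% interval −0.40 to 0.03, adjusted p = 0.633), so the neighbours combi-2 and combi-1 did not differ beyond their spread, and their arrays overlapped. The signals of 6 interferon response genes moved in the same order of groups, with an array mean between 7.57 and 7.96 with NTC, between 8.05 and 8.42 with combi-2 and between 9.56 and 9.70 with combi-1, and their part in the MUC16 values was not tested. All 6 of these genes were called higher with combi-1 and 0 with combi-2, where 0.68% and 0.304% of all genes were called higher. With combi-2 all 6 still had positive log2 fold changes, with a median of 0.496. Of the 6, 5 had an unadjusted p under 0.05 with combi-2 (limma), against 7.41% of all genes higher.

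**Figure D1:**
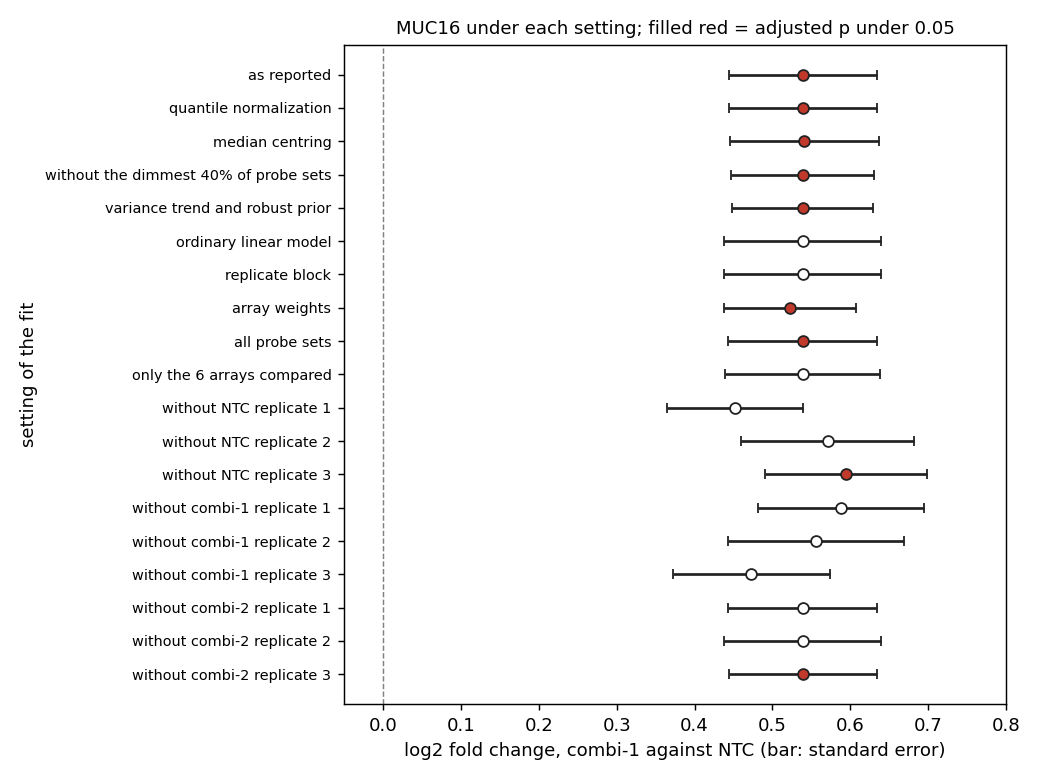
MUC16, combi-1 against NTC, under each setting of the fit. Points give the log2 fold change on the x axis and bars its standard error, and filled points have an adjusted p under 0.05. All points lie between 0.452 and 0.595, and 10 of the 18 alternatives have an open point.

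In all, 1 of the 10 mucins rose and 0 fell with combi-1, where 1.51% of all genes were called, 0.68% higher and 0.833% lower. With combi-2, 0 of 10 were called, where 0.75% of all genes were, 0.304% higher and 0.446% lower. Between the combinations 0 of 10 were called, where 0.333% of all genes were, 0.0968% higher and 0.237% lower. With a p under 0.05 before adjustment (limma), 3 of 10 were higher and 0 lower with combi-1 (MUC4, MUC5AC and MUC16), against 15.7% of all genes, 8.02% higher and 7.65% lower. With combi-2 this held for 3 of 10 higher and 0 lower (MUC4, MUC16 and MUC20), against 13.3% of all genes, 7.41% higher and 5.85% lower. Between the combinations it held for 0 of 10, against 8.87% of all genes, 5.09% higher and 3.78% lower. An ordinary linear model called 0 of 10 in each comparison. The median log2 fold change of the 10 was 0.034 with combi-1 and 0.085 with combi-2, beside 0.018 and 0.016 over all genes.

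**Figure D2:**
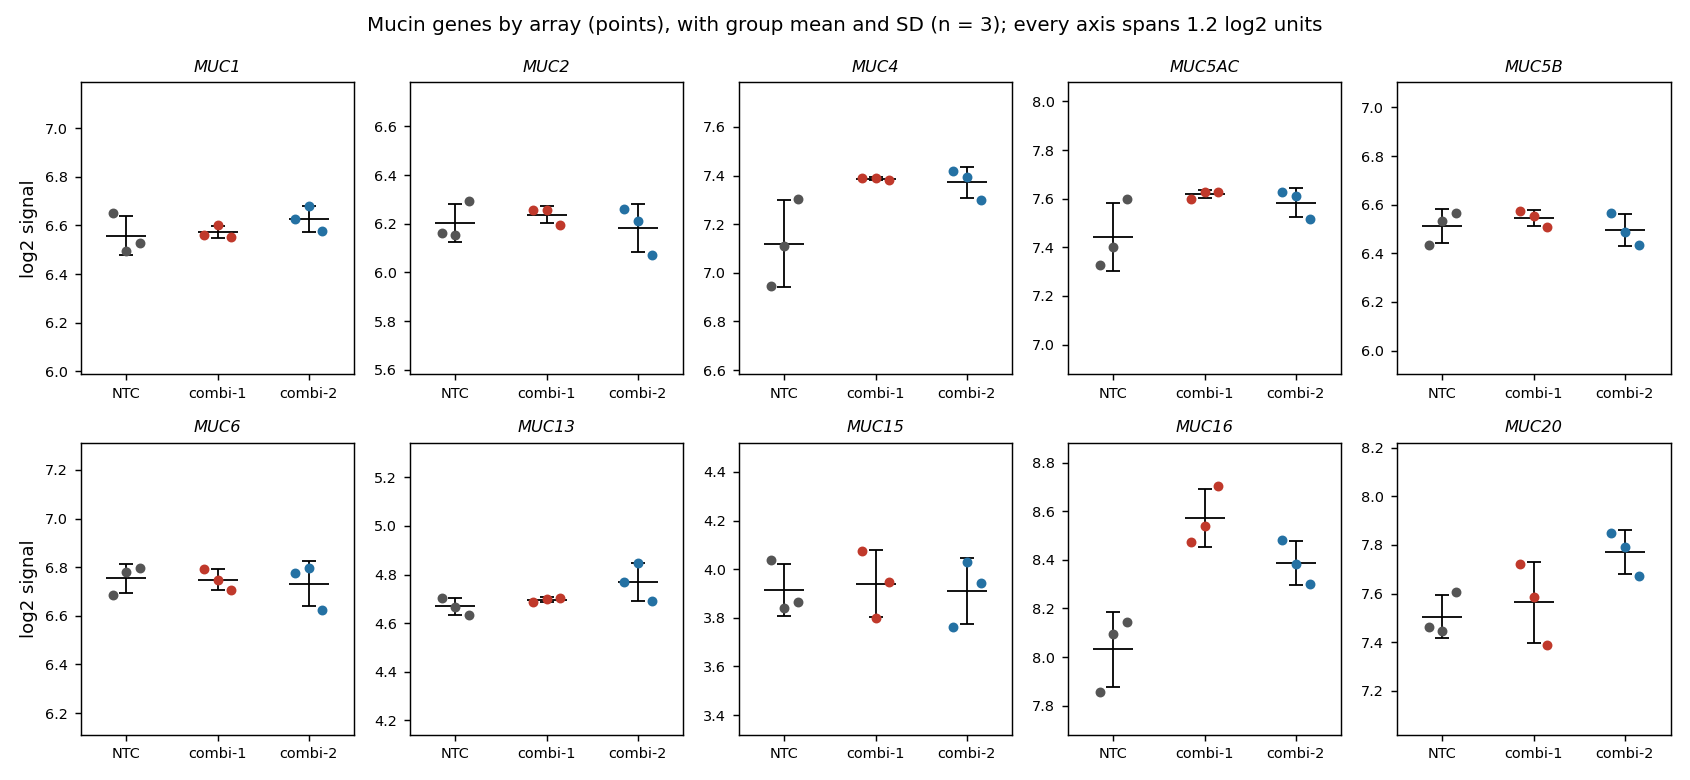
Log2 signal of the 10 mucin genes on each array (points; replicates 1, 2 and 3 from left to right), with the group mean and SD. MUC16 lies higher on the 6 silenced arrays than on the NTC arrays, while the groups of MUC1, MUC2, MUC5B, MUC6 and MUC15 lie over each other.

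MUC4, a large surface mucin that binds the receptor ERBB2, came next. Its log2 signal was 6.95, 7.11 and 7.30 with NTC, 7.39, 7.39 and 7.38 with combi-1 and 7.42, 7.39 and 7.30 with combi-2. The NTC arrays were spread widely and the combi-1 arrays lay close together just above the highest of them, and the lowest combi-2 array overlapped NTC replicate 3. The log2 fold change was 0.27 with combi-1 (95% interval 0.07 to 0.47, adjusted p = 0.201 from limma) and 0.25 with combi-2 (95% interval 0.05 to 0.45, adjusted p = 0.274), and neither passed the test. Without NTC replicate 1 the values were 0.181 and 0.165, and without NTC replicate 3 they were 0.360 and 0.344.

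MUC20, the neighbour of MUC4 and a surface protein known to bind the receptor MET, was highest with combi-2. Its log2 signal was 7.46, 7.45 and 7.61 with NTC, 7.72, 7.59 and 7.39 with combi-1 and 7.85, 7.79 and 7.67 with combi-2. The combi-2 arrays lay above all NTC arrays, and the combi-1 arrays reached from below the lowest NTC array to above the highest. The log2 fold change was 0.27 with combi-2 (95% interval 0.05 to 0.48, adjusted p = 0.283 from limma) and 0.06 with combi-1 (95% interval −0.15 to 0.27, adjusted p = 0.782). The difference between the combinations, 0.21 (95% interval −0.01 to 0.42, adjusted p = 0.578), did not pass the test. A pseudogene copy of MUC20 exists, and whether its RNA adds to this signal was not tested.

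MUC1, the most studied surface mucin, had 6.65, 6.50 and 6.53 with NTC, 6.56, 6.60 and 6.55 with combi-1 and 6.63, 6.68 and 6.58 with combi-2. NTC replicate 1 lay above 5 of the 6 silenced arrays, and the groups overlapped. The log2 fold changes were 0.01 (95% interval −0.12 to 0.15) and 0.07 (95% interval −0.07 to 0.20), and both intervals end below the 0.54 measured for MUC16 with combi-1.

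MUC13, a surface mucin of the gut and bile ducts, had 4.70, 4.67 and 4.63 with NTC, 4.69, 4.70 and 4.70 with combi-1 and 4.77, 4.85 and 4.69 with combi-2. MUC15 had 4.04, 3.84 and 3.86 with NTC, 4.08, 3.80 and 3.95 with combi-1 and 3.76, 4.03 and 3.94 with combi-2. Both belong to the 40% of named probe sets with the lowest mean signal and their groups overlapped in all comparisons. The log2 fold changes of MUC13 were 0.03 and 0.10 and those of MUC15 0.03 and −0.0022, with adjusted p between 0.486 and 0.995 from limma.

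Of the secreted mucins, MUC5AC had the highest log2 fold changes, at 0.17 with combi-1 and 0.14 with combi-2. Its log2 signal was 7.33, 7.40 and 7.60 with NTC, 7.60, 7.63 and 7.63 with combi-1 and 7.63, 7.61 and 7.51 with combi-2. As in MUC4 and MUC16, NTC replicate 1 was the lowest array and NTC replicate 3 the highest NTC array, and NTC replicate 3 lay among the silenced arrays. The 95% intervals were 0.0039 to 0.35 and −0.03 to 0.31, and neither value passed the test (adjusted p = 0.311 and 0.468 from limma). Without NTC replicate 1 the value with combi-1 was 0.117, and without NTC replicate 3 it was 0.253.

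MUC2, the main gel-former of the intestine, had 6.16, 6.15 and 6.29 with NTC, 6.26, 6.26 and 6.20 with combi-1 and 6.26, 6.21 and 6.07 with combi-2. MUC5B, a gel-former of the airways and the gallbladder, had 6.43, 6.53 and 6.57 with NTC, 6.57, 6.55 and 6.51 with combi-1 and 6.57, 6.49 and 6.43 with combi-2. MUC6, the mucin of deep gastric and biliary glands, had 6.69, 6.78 and 6.79 with NTC, 6.79, 6.75 and 6.71 with combi-1 and 6.77, 6.80 and 6.625 with combi-2. In all 3 genes the groups overlapped and combi-2 replicate 3 was the lowest array of its group. Over the 4 secreted mucins the log2 fold changes ran from −0.0049 to 0.17 with combi-1 and from −0.02 to 0.14 with combi-2, and the 95% intervals ended at 0.35 and 0.31. Over the 6 surface mucins they ran from 0.01 to 0.54 and from −0.0022 to 0.36.

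**Figure D3:**
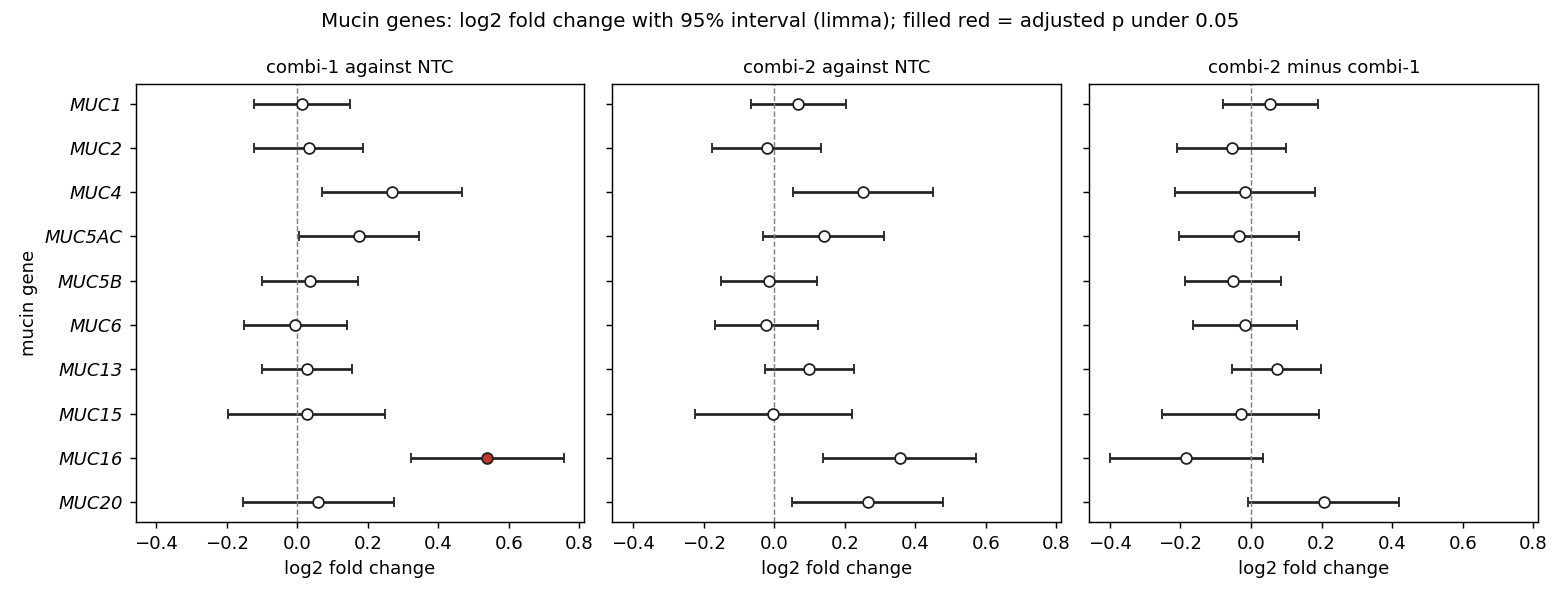
Log2 fold change (x axis) of each mucin with its 95% interval from limma, in 3 comparisons. MUC16 with combi-1 is the filled point, at 0.54, and the intervals of MUC4 with both combinations, of MUC5AC with combi-1 and of MUC16 and MUC20 with combi-2 lie above 0 without passing the adjusted test.

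The SD of a mucin within a group ran from 0.00594 for MUC4 with combi-1 to 0.179 for MUC4 with NTC. Combi-2 replicate 3 was the lowest array of its group in 9 of the 10 mucins, the exception being MUC15, and NTC replicate 3 was the highest of its group in 7. Array means over the 10 mucins lay between 6.43 and 6.53 with NTC, between 6.57 and 6.61 with combi-1 and between 6.51 and 6.62 with combi-2. In 2 of 10 mucins (MUC4 and MUC16) the combi-1 arrays lay above all NTC arrays and in 0 below them, where the groups of 25.9% of all genes did not overlap, 15.8% higher and 10.1% lower. In 2 of 10 (MUC16 and MUC20) the combi-2 arrays lay above all NTC arrays and in 0 below them, where this held for 18.1% of all genes, 11.6% higher and 6.5% lower. The groups of combi-2 and combi-1 overlapped in all 10, where those of 15.1% of all genes did not, 8.59% higher and 6.5% lower.

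The genes whose values were most like those of MUC16 were the pseudogene DPPA5P1, PRKD2, a protein kinase D, and PLAUR, the urokinase receptor. After centring each gene on its NTC mean, their root mean square differences from MUC16 over the 9 arrays were 0.0786, 0.0938 and 0.0965 on the log2 scale. The log2 fold changes with combi-1 were 0.52, 0.50 and 0.55 and with combi-2 0.35, 0.32 and 0.35. Among the mucins MUC4 was nearest, at 0.182, a place of 345 among all genes, followed by MUC5AC at 0.254. These likenesses are descriptions over arrays that share the NTC group.

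A wider set of genes of mucin biology was read in the same fit. Of 13 other mucin or mucin-like genes, 0 passed the test in any of the 3 comparisons. At an unadjusted p under 0.05 (limma), 2 were higher with each combination, 0 were lower and 0 differed between them. Over all genes, 1.51% were called with combi-1, 0.75% with combi-2 and 0.333% between them. The shares past an unadjusted p of 0.05 were 15.7%, 13.3% and 8.87% in the same order. Of the 13, the smallest p belonged to OVGP1, the oviduct glycoprotein, at 0.17 on the log2 scale with combi-2 (adjusted p = 0.228 from limma). Next came CD164, a sialomucin, with 0.20 with combi-1 (adjusted p = 0.260). The median log2 fold change of the 13 was 0.067 with combi-1 and −0.0056 with combi-2.

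The enzymes that build O-linked sugar chains on mucins held the largest change of the set. GALNT5, one of the transferases that attach the first sugar, had a log2 signal of 8.80, 8.73 and 8.81 with NTC, 9.50, 9.51 and 9.47 with combi-1 and 9.53, 9.62 and 9.75 with combi-2. All silenced arrays lay far above the NTC arrays, and the combi-2 arrays also lay above the combi-1 arrays. The log2 fold change was 0.72 with combi-1 (standard error 0.0644, n = 3 arrays per group, adjusted p = 0.00127 from limma), a 1.64-fold increase, and 0.85 with combi-2 (adjusted p = 0.00117), a 1.81-fold increase. The difference between the combinations was 0.14 (95% interval −0.01 to 0.28, adjusted p = 0.590) and did not pass the test. GALNT5 passed in each of the 18 other fits for both combinations, with adjusted p between 2.33e-04 and 0.0213.

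GALNT2, another transferase of the same first step, fell by 0.37 on the log2 scale with combi-2 (adjusted p = 0.0324 from limma), from 8.92, 8.89 and 8.92 with NTC to 8.60, 8.54 and 8.49. With combi-1 it had 8.89, 8.74 and 8.79, which is −0.11 on the log2 scale (adjusted p = 0.416). The difference between the combinations, −0.26, had an adjusted p of 0.180. The call with combi-2 was lost in 8 of 9 fits that left out an array, all but that without combi-1 replicate 1, and with only the 6 arrays compared (adjusted p between 0.0586 and 0.132). It was lost with a replicate block as well. Of 23 O-glycosylation genes, 1 was higher and 0 lower with combi-1, 1 was higher and 1 lower with combi-2 (1.51% and 0.75% of all genes were called), and the medians were 0.083 and 0.080. At an unadjusted p under 0.05, 5 of 23 were higher and 2 lower with each combination, against 15.7% and 13.3% of all genes in either direction. GALNT4, also a transferase, had 0.41 with combi-1 and 0.50 with combi-2 and did not pass (adjusted p = 0.080 and 0.0574).

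Of 15 partners and sheddases of surface mucins, 2 were higher and 0 lower with combi-1 and 1 was higher and 0 lower with combi-2, where 1.51% and 0.75% of all genes were called. At an unadjusted p under 0.05, 7 of 15 were higher and 1 lower with combi-1 and 5 higher and 1 lower with combi-2, against 15.7% and 13.3% of all genes in either direction. MMP14, a membrane metalloproteinase that can shed MUC1, had 8.13, 8.29 and 8.35 with NTC, 8.82, 8.82 and 8.73 with combi-1 and 8.83, 8.89 and 8.65 with combi-2. The silenced arrays did not overlap the NTC arrays, and the log2 fold change was 0.53 with combi-1 (adjusted p = 0.0193 from limma) and 0.53 with combi-2 (adjusted p = 0.0294). CTNND1, which encodes p120 catenin, rose by 0.39 with combi-1 (adjusted p = 0.0199) and had 0.25 with combi-2 (adjusted p = 0.136), with 8.82, 8.92 and 9.0 on the NTC arrays, 9.33, 9.29 and 9.29 on the combi-1 arrays and 9.15, 9.12 and 9.21 on the combi-2 arrays. The difference between the combinations in CTNND1 did not pass the test (adjusted p = 0.548). The combi-1 calls of MMP14 and CTNND1 were lost without NTC replicate 1 or 2 or any combi-1 replicate (adjusted p between 0.0597 and 0.0918), and the combi-2 call of MMP14 without any array but combi-2 replicate 3 (adjusted p between 0.0557 and 0.125). In an ordinary linear model both MMP14 calls were lost (adjusted p = 0.054 and 0.0657). With only the 6 arrays compared, the combi-2 call of MMP14 (adjusted p = 0.136) and the combi-1 call of CTNND1 (adjusted p = 0.0553) were lost. With a replicate block the calls of MMP14 and CTNND1 were lost as well.

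**Figure D4:**
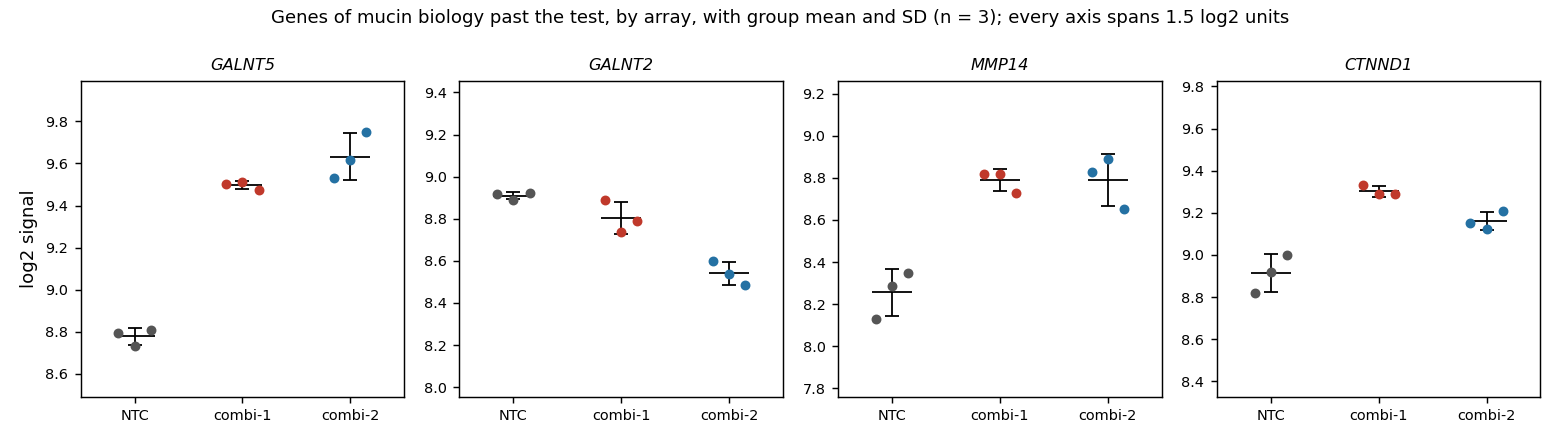
Log2 signal by array, with group mean and SD, of the genes of mucin glycosylation and of mucin partners that passed the test. GALNT5 and MMP14 lie higher on all 6 silenced arrays, GALNT2 is lowest on the combi-2 arrays and CTNND1 is highest on the combi-1 arrays.

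Of the receptors in this list, 0 passed the test. ERBB3, a receptor of the ERBB family, had log2 fold changes of 0.36 with combi-1 and 0.28 with combi-2 (adjusted p = 0.0578 and 0.166 from limma). Both of its silenced groups lay above all NTC arrays, as held for 15.8% of all genes with combi-1 and 11.6% with combi-2. EGFR had −0.07 and −0.11 (adjusted p = 0.563 and 0.436). ERBB2, the partner of MUC4, and MET, the partner of MUC20, had log2 fold changes of 0.19 and 0.01 with combi-1 and 0.12 and 0.02 with combi-2, and did not pass. MSLN, mesothelin, which binds MUC16, had 0.05 and 0.02. LGALS3, a galectin that binds sugars of MUC1, had 0.12 with each combination.

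Of 17 genes of mucus-secreting cells, 0 passed the test in any of the 3 comparisons. With each combination 1 of 17 was past an unadjusted p of 0.05 (limma), and 0 of 17 between them. Over all genes, 1.51% were called with combi-1, 0.75% with combi-2 and 0.333% between them. The shares past an unadjusted p of 0.05 were 15.7%, 13.3% and 8.87% in the same order. FOXA1, a transcription factor of endodermal epithelia, was at 0.23 with combi-1 and 0.18 with combi-2 on the log2 scale (adjusted p = 0.180 and 0.333 from limma), and AGR3, a protein disulfide isomerase, had 0.11 and 0.14. Medians were 0.084 and 0.070. Of 10 transcription factors known to act on mucin genes, 0 passed. Past an unadjusted p of 0.05 (limma) were 3 with combi-1, 1 with combi-2 and 1 between the combinations. Over all genes, 15.7%, 13.3% and 8.87% were past this p in the same order. KLF4, a factor of epithelial differentiation, had 7.20, 7.27 and 7.31 with NTC, 7.55, 7.48 and 7.57 with combi-1 and 7.45, 7.45 and 7.38 with combi-2. Its groups did not overlap, as held for 25.9% of all genes with combi-1, 18.1% with combi-2 and 15.1% between them. Its log2 fold changes of 0.27 and 0.16 did not pass the test (adjusted p = 0.0578 and 0.260). GATA6, an endodermal factor, had 0.31 and 0.14 (adjusted p = 0.0933 and 0.461).

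**Figure D5:**
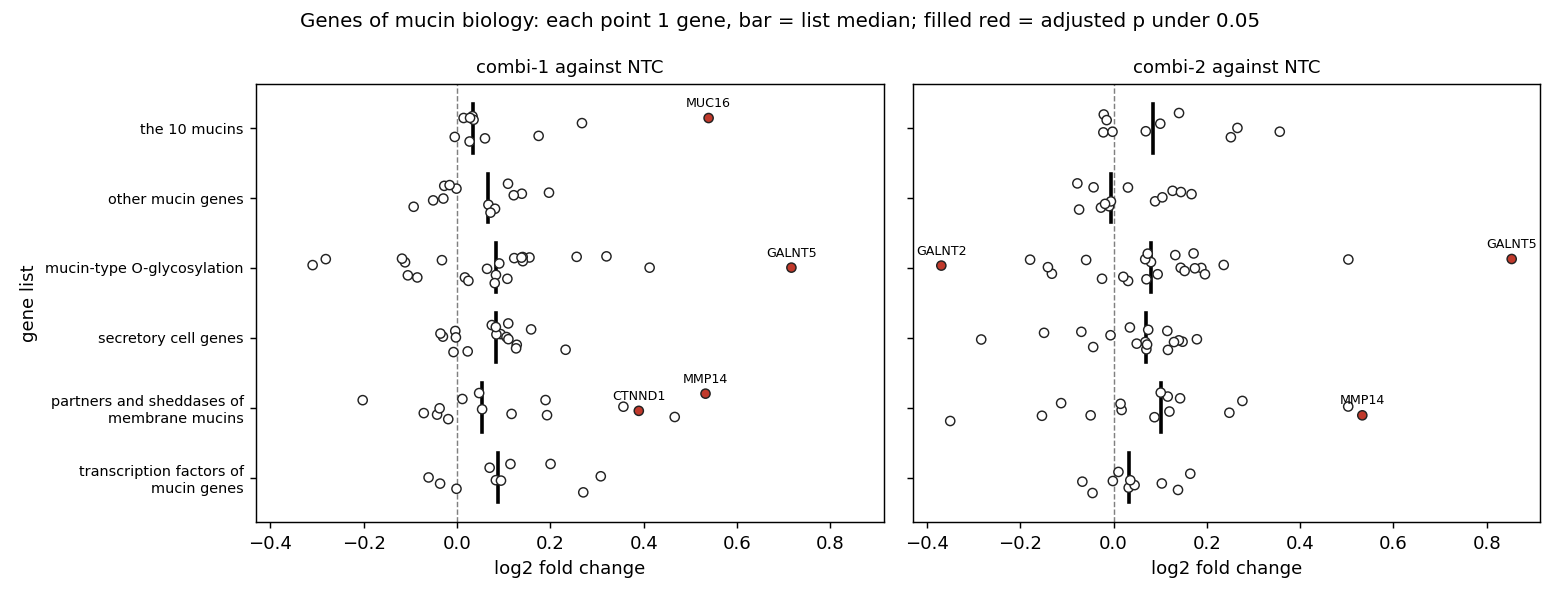
Log2 fold changes (x axis) of the genes of mucin biology by list, for combi-1 and combi-2 against NTC. Each point is a gene, black bars are list medians and filled points passed the test. MUC16, GALNT5, MMP14 and CTNND1 are filled with combi-1, and GALNT5, GALNT2 and MMP14 with combi-2.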

How the data were processed

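RNA of HUCCT-1 cells was hybridised to Clariom D human arrays. The authors assigned probes to genes with a custom chip definition file and deposited log2 signals per probe set, background-corrected and normalized by RMA, with 1 column per array. The genome build was not given in the sources used here. All 9 columns were mapped to samples, and 0 other columns of values were present. NTC replicate 1 holds 29641 distinct values and each other array 7528. RMA puts all arrays on the same distribution, so a shift of most genes would not be seen. The array design's symbols were used, and the symbols of all 10 mucins matched RefSeq by Entrez identifier. The 2133 probe sets with no or several symbols were left out.

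Group means of the 9 arrays were fitted with limma 3.58.1 in R 4.3.3 (lmFit, eBayes, prior degrees of freedom 2.56), with Benjamini-Hochberg adjustment over 37201 genes and a threshold of 0.05. Intervals are 95% moderated intervals, and errors are SD or moderated standard errors. The number of arrays limits the precision. The fit was tested on simulated data. No array pair was identical. Promoter windows came from RefSeq (GRCh38.p14).

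The members, gene lists and tests were chosen with earlier results of these data known. Up to 6 genes of a list were named. Named genes were the 10 mucins, the siRNA targets and known targets, the genes of each list past the threshold or else the 2 with the smallest p, and the 3 genes nearest to each called mucin. GALNT4, ERBB2, ERBB3, EGFR, MET, MSLN, LGALS3 and the markers that bound a list's range were added after their values were seen. The other fits used quantile normalization, array medians set to their common mean, no probe sets from the dimmest 40%, a variance trend with robust prior, an ordinary linear model, a replicate block, array weights, only the 6 arrays compared, all probe sets, and leaving out each array.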

Additional observations from a re-analysis of the deposited data

Results flagged for a closer look

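None of the 10 mucins was flagged. The effects of the 2 combinations differed, by the test of combi-2 minus combi-1, in 6 of the genes read beside them. CCN1, a known target, had a difference of −0.515 on the log2 scale (adjusted p = 0.0211 from limma), with log2 fold changes of −0.62 with combi-1 and −1.13 with combi-2. The antiviral genes IFI44L, IFIT1, MX1, MX2 and OAS1 had differences of −1.90, −1.79, −1.19, −1.78 and −1.05 (adjusted p between 5.36e-04 and 0.0107). Outlying samples were not looked for, because each group holds 3 arrays.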

How the results depend on the processing

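The count of mucins called with combi-1, 1 (MUC16), was 0 in an ordinary linear model, 0 with the replicate block, 0 with only the 6 arrays compared and between 0 and 1 without 1 array; it was kept without NTC replicate 3 or combi-2 replicate 3, and the cause was not tested. The count was 0 with combi-2 and 0 between the combinations in every alternative run. MUC13 and MUC15 leave the test when the dimmest 40% of probe sets are left out. Over all genes, the 563 calls with combi-1 became 1067 without the dimmest probe sets, 981 with array weights, 206 with the replicate block and between 196 and 730 without 1 array. The 279 calls with combi-2 became 539, 423 and 48 in the same order, 425 with a variance trend, 55 with only the 6 arrays compared and between 81 and 358 without 1 array. The 124 calls between the combinations became 226 without the dimmest probe sets, 187 with a variance trend, 73 in an ordinary linear model, 42 with the replicate block, 54 with only the 6 arrays compared and between 48 and 124 without 1 array. Whether arrays of different groups with the same replicate number were handled together is not stated. Deviations of same-numbered arrays correlated between −0.181 and 0.0513 over 9 pairs, and those of differently numbered arrays between −0.107 and 0.14 over 18 pairs. With the replicate block the adjusted p was 0.1 for MUC16, 0.078 for CTNND1 and 0.0727 for MMP14 with combi-1, and 0.106 for both GALNT2 and MMP14 with combi-2, and GALNT5 stayed past the threshold.

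Signs turned in values that had not passed the test. With array weights MUC2 with combi-2 was 0.0206 and combi-2 minus combi-1 was 0.00538 for MUC4 and 0.0158 for MUC6, and with median centring it was −0.000651 for MMP14. Without 1 array, log2 fold changes with combi-1 ran from −0.0169 to 0.0605 for MUC1, −0.00342 to 0.0639 for MUC5B, −0.0389 to 0.016 for MUC6, −0.0404 to 0.0968 for MUC15 and −0.0179 to 0.148 for MUC20. With combi-2 they ran from −0.0611 to 0.0346 for MUC2, −0.0535 to 0.0164 for MUC5B, −0.0558 to 0.0316 for MUC6 and −0.0606 to 0.0724 for MUC15. Combi-2 minus combi-1 ran from −0.0942 to 0.00146 for MUC2, −0.0405 to 0.019 for MUC4, −0.049 to 0.0365 for MUC6, −0.099 to 0.0455 for MUC15 and −0.0492 to 0.069 for MMP14.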
